A study of Mus musculus with 2 samples.

Results

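The cells described here are CD8 T cells from the inflamed pancreatic islets of nonobese diabetic (NOD) mice that carried transcripts of Cd200, Nrn1 and Tnfrsf4, and they were given the label recently activated. They were chosen by measured values. A cell was kept with 200 to 5000 detected genes and at most 20% mitochondrial UMIs (unique molecular identifiers, each standing for 1 captured RNA molecule). It was called CD8 with at least 2 UMIs of Cd8a plus Cd8b1 and none of Cd4 or Foxp3. From the CD8 cells, a gate took those with at least 2 UMIs of Cd200, Nrn1 and Tnfrsf4 together, under 2 UMIs of the cytotoxic genes Gzmb, Havcr2 and Entpd1, and under 3 UMIs of the cell cycle genes Mki67, Top2a, Birc5, Ube2c and Cdk1. The gate held 265 of 2091 CD8 cells and of 5629 cells kept in all, 136 from the wild type library and 129 from the knockout library.

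Cd200 encodes a membrane protein that restrains myeloid cells through its receptor. Nrn1 encodes neuritin, a membrane-anchored protein seen on anergic and follicular T cells, and Tnfrsf4 encodes OX40, a costimulatory receptor of the tumor necrosis factor (TNF) receptor family. T cells induce OX40 after the T cell receptor (TCR) binds antigen. TCR engagement activates the NFAT, AP-1 and NF-kB factors, and the EGR and NR4A factors follow as early products that both drive and limit the response. In autoimmune islets, CD8 T cells meet beta cell antigen over a long time, and Tcf7-expressing cells are known to act as a reservoir for cytotoxic progeny.

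The wild type library came from NOD.Foxp3-EGFP mice and the knockout library from NOD.Tnfrsf9-/-.Foxp3-EGFP mice, which lack CD137 (4-1BB, the product of Tnfrsf9) in all cells from the germ line. Both strains carried the Foxp3 reporter, so the controls were reporter mice as well. Each library pooled the islets of 6 female mice aged 9 to 10 weeks, and CD8 T cells and GFP+ regulatory T cells were sorted and run together in it. With 1 library per genotype no comparison between genotypes has a replicate, no test is given, and a difference between the libraries and one between the genotypes cannot be told apart.

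Levels are given in CPM, the usual depth-scaled unit, for which the UMIs of a group of cells were added up per gene and divided by all UMIs of that group. Pairs of values are given in the order wild type, knockout. The gate held 1084869 UMIs in wild type and 1064994 in knockout. A ratio between groups is a log2 ratio of CPM with an exact 95% interval, which covers counting error only and not the variation between mice or cells. A gene was called past the fold where the ratio reached 2-fold and the interval left out 0, with at least 20 UMIs over both groups. For the gate against the other CD8 cells, this had to hold in the same direction in both libraries. Gate cells were deeper than other CD8 cells, with a median of 7198 against 5943 UMIs in wild type and 7274 against 5211 in knockout.

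Tnfrsf9, the deleted gene, stood at 196 CPM in wild type and 73.2 CPM in knockout gate cells, a log2 ratio of -1.42 (-1.82 to -1.04). In the other CD8 cells it stood at 90.0 and 25.6 CPM. Knockout cells were therefore lower but not at 0, and whether the remaining 3′ reads lie outside the deleted part was not tested. Within each library Tnfrsf9 was highest in the gate, by 1.12 (0.89 to 1.36) over the other CD8 cells in wild type and 1.52 (1.11 to 1.91) in knockout. The group next to the gate was the cytotoxic cells, at 162 and 57.3 CPM.

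Most gate cells also held CD3 genes, which the rule did not use. The median gate cell carried 12 UMIs of Cd8a plus Cd8b1 in wild type and 11 in knockout. The rule in part fixes these counts, so they do not bear on the label. Cd8b1, which the rule used as well, was found in 88.2% and 89.9% of gate cells. It was found in 91.7% and 92.8% of the other CD8 cells. Of the 136 wild type gate cells 134 had a UMI of Cd3d, Cd3e or Cd3g, as had 128 of the 129 knockout gate cells. A few cells went against the label. With at least 10 UMIs of Tyrobp, H2-Aa, H2-Ab1 and H2-Eb1 together, genes of antigen-presenting and other myeloid cells, there were 2 gate cells in wild type and 3 in knockout. Of these 5, 4 carried 12 to 27 UMIs of Siglech, a receptor of plasmacytoid dendritic cells, and no Cd3e UMI. The other, a knockout cell, held 396 UMIs of the presentation genes beside 3 of Cd3e. The 13 listed myeloid genes summed to 345 CPM in wild type and 748 CPM in knockout gate cells, and to 315 and 271 CPM in the other CD8 cells. Without such cells the sums were 168 and 147 CPM in the gate and 164 and 147 CPM outside it, a drop that the choice of cells in part fixes. Csf1r, C1qa, C1qb and C1qc were at 0 in both gates. No doublet caller was run, and the libraries shared 16 barcodes, 1 of them that of a wild type gate cell.

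Regulatory T cell genes were checked because those cells were in the same libraries and also express Tnfrsf4. The 9 listed genes summed to 442 CPM in wild type and 446 CPM in knockout gate cells, against 269 and 221 CPM in the other CD8 cells. Ikzf2, which encodes Helios, gave 286 and 323 CPM of this in the gate. Of the 9 genes 4 were tested, and 1 was past the fold and higher, with medians of 0.78 and 1.09 on the log2 scale. At least 2 of the 9 genes were found in 48 of 136 and 39 of 129 gate cells. In the other CD8 cells they were found in 156 of 755 and 140 of 1071. Lrrc32 was at 0 in both gates, and Ccr8 stood at 5.53 and 6.57 CPM. By the rule no gate cell had a Cd4 or Foxp3 UMI, and the part of regulatory T cells in the results was not tested. In the gate, B cell genes summed to 7.37 and 6.57 CPM, and stromal genes to 40.6 and 58.2 CPM, against 4.38 and 9.35 CPM and 44.9 and 81.7 CPM in the other CD8 cells. NK and innate genes summed to 108 and 99.5 CPM in the gate, above the 63.1 and 39.0 CPM outside it, and lay in 1.47% and 3.10% of gate cells. Acinar genes summed to 81.1 and 64.8 CPM and endocrine genes to 25.8 and 15.02 CPM, against 70.2 and 39.5 CPM and 11.5 and 10.5 CPM in the other CD8 cells. Erythroid genes were at 0.

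Promoter windows of 250 bases before the transcription start were read from RefSeq (GRCm38.p6) for the genes that placed or led the cells. A window was found for 15 of 19 genes, namely the 3 gate genes, Xcl1 and the 15 genes highest in the gate, and none for Nrn1, Elmod1, Gucy1a3 and Ispd. Where a gene had several listed starts, as 1700019D03Rik with 7, only that at the lowest coordinate was read. Both strands were searched for the core letters of sites for factors downstream of the TCR. GGAAAA (NFAT) stood in 4 of the 15 windows (26.7%) and in 20.6% of all 27025 promoters. TGANTCA (AP-1) and GCGTGGG (EGR) stood in 0 of the 15, and in 6.87% and 4.18% of all promoters. The windows with GGAAAA were those of Pdzrn3, Il21, Zan and Pdcd1lg2. A match is a run of letters and not a bound site. The windows of Cd200, which placed most gate cells, of Xcl1, the marker with the highest level, and of Il21, which held the most matches, are printed 5′ to 3′ on the strand of the gene with GGAAAA, or TTTTCC for the other strand, in capitals. All lie on the minus strand, Cd200 at chr16:45409054-45409303, Xcl1 at chr1:164935523-164935772 and Il21 at chr3:37232637-37232886.
Cd200: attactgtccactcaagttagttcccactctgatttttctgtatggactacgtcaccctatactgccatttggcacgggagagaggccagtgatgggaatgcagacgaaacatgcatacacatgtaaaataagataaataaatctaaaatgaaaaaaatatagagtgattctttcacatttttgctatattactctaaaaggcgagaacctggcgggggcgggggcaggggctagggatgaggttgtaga
Xcl1: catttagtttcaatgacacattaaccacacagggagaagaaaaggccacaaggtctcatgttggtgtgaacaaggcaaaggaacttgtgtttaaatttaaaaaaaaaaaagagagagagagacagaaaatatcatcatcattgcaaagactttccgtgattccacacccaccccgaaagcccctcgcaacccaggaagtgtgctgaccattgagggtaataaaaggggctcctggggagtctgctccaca
Il21: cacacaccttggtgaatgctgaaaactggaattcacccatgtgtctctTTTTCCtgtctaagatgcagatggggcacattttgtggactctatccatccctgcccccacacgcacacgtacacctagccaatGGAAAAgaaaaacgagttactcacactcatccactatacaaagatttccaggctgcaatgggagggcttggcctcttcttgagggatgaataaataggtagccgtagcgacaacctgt
The Il21 window held the NFAT letters at 2 places, and the Cd200 and Xcl1 windows held none of the searched runs.

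The gate took 15.3% of the CD8 cells in wild type (136 of 891, exact binomial 95% interval 13.0 to 17.8) and 10.8% in knockout (129 of 1200, 9.05 to 12.6). Knockout minus wild type was -4.51 percentage points (-7.51 to -1.61). The other CD8 cells were divided by the same kind of rule into cycling cells, cytotoxic cells, resting cells (at least 2 UMIs over a short set of naive T cell genes that includes Ccr7 and Lef1) and remaining cells. Resting cells took 26.7% of wild type and 56.3% of knockout CD8 cells. Outside the resting group the gate took 20.8% (136 of 653) in wild type and 24.6% (129 of 524) in knockout, and the difference of 3.79 percentage points (-1.002 to 8.65) had the opposite sign and an interval that included 0. Outside the resting and cycling groups the shares were 28.9% and 30.2%. The lower share in knockout thus went with a larger resting group. With every cell thinned to 2000 UMIs and shallower cells left out, 9.29% (63 of 678) and 6.29% (52 of 827) met the rule.

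**Figure D1:**
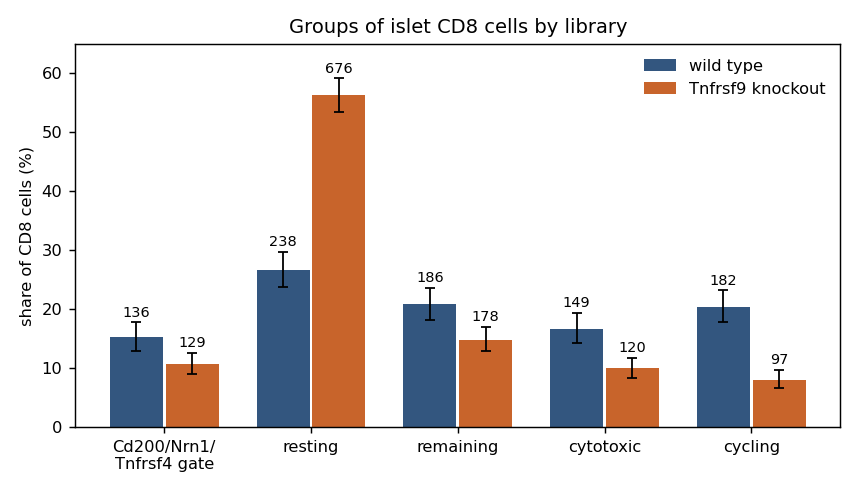
Share of CD8 cells (%) in the gate and in the other 4 groups, by library. Bars start at 0 and error bars are exact binomial 95% intervals. The gate held 136 wild type and 129 knockout cells, whereas the resting group held 238 and 676.

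Cd200 placed most of the cells. A Cd200 UMI was present in 122 of 136 wild type gate cells (89.7%) and 113 of 129 knockout gate cells (87.6%). Tnfrsf4 was present in 72 (52.9%) and 69 (53.5%), and Nrn1 in 46 (33.8%) and 60 (46.5%), a difference for Nrn1 of 12.7 percentage points (0.893 to 24.0). All 3 genes were found together in 19 and 27 cells, and Cd200 alone in 40 and 32. At the edge of the rule, 33 wild type and 43 knockout gate cells had exactly 2 gate UMIs, and 92 and 135 cells just outside it met the other limits with 1. At least 2 UMIs of the gate genes were also held by 23.5% and 23.3% of cytotoxic cells and by 35.7% and 36.1% of cycling cells.

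As these genes chose the cells, their levels in the gate are a description: 462 CPM in wild type and 389.7 CPM in knockout for Cd200, 129 and 234 CPM for Nrn1 and 242 and 222 CPM for Tnfrsf4. The gene left out of a choice can be compared. Among CD8 cells under the cytotoxic and cycle limits, Cd200 stood at 484 CPM in wild type cells chosen by Nrn1 and Tnfrsf4 and at 101 CPM in the rest, and in knockout at 426 and 44.0 CPM. Nrn1 stood at 104 against 19.3 CPM in cells chosen by Cd200 and Tnfrsf4, and in knockout at 215 against 12.7 CPM. Tnfrsf4 stood at 209 against 40.3 CPM in cells chosen by Cd200 and Nrn1, and in knockout at 175 against 27.4 CPM. Each gene was thus higher, by 2.26 to 4.08 on the log2 scale, in cells chosen without it.

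Both marker genes outside the rule were high in the gate. Xcl1, which encodes a chemokine that attracts cross-presenting dendritic cells, stood at 2198 against 413 CPM in wild type and 1640.4 against 395 CPM in knockout. The log2 ratios were 2.41 (2.33 to 2.49) and 2.05 (1.96 to 2.14). Resting cells had 60.4 and 38.8 CPM of it, remaining cells 791 and 867 CPM, cytotoxic cells 289 and 591 CPM and cycling cells 507 and 904 CPM. Tbc1d4, a Rab GTPase-activating protein of glucose transporter traffic, stood at 152 against 27.0 CPM in wild type and 257 against 39.7 CPM in knockout, with ratios of 2.49 (2.17 to 2.82) and 2.69 (2.45 to 2.94).

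Of 9738 genes tested outside the rule, 141 (1.45%) were past the fold and higher in the gate in both libraries, and 200 (2.05%) were lower in both. Many of these calls were not met against each group on its own. Of the 141, 93 were also higher over resting, 87 over cycling, 47 over cytotoxic and 42 over remaining cells. Of all genes tested against each group, 4.65%, 3.41%, 1.53% and 0.99% were higher in the gate, in the same order. Of the 200, 159 were also lower against cycling, 40 against resting, 18 against cytotoxic and 11 against remaining cells. The shares of all genes lower in the gate were 5.31%, 2.13%, 1.44% and 0.43% in that order. The 15 highest were Elmod1, Kcnma1, Pdzrn3, Gucy1a3, Il21, 1700019D03Rik, Ispd, Zan, Tbc1d4, Spry1, Itgb8, Pdcd1lg2, Igf1r, Tnfsf11 and Kif13a. For 15 of these 15 the gate had the highest level of the 5 CD8 groups in both libraries, which their choice in part fixes. The group next to the gate was most often the remaining cells.

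Several of the highest genes encode receptors, ligands and regulators of signalling. Igf1r, the receptor of insulin-like growth factor 1, stood at 111 against 14.3 CPM in wild type and 162 against 31.3 CPM in knockout. Pdcd1lg2, which encodes the PD-1 ligand PD-L2, stood at 57.1 against 10.8 CPM and at 74.2 against 13.4 CPM. Spry1, a feedback inhibitor of the ERK cascade, stood at 31.3 against 5.56 CPM and at 52.6 against 6.14 CPM. Each of these 3 was lower in every other group than in the gate of the same library. The highest level of any of them outside the gate was 62.0 CPM, for Igf1r in knockout remaining cells. Pdzrn3, a ubiquitin ligase with PDZ domains, stood at 77.4 against 4.22 CPM and at 109.9 against 7.89 CPM. Itgb8, an integrin chain that activates latent TGF-beta, stood at 16.6 against 2.36 CPM and at 22.5 against 4.09 CPM.

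Other genes of this set were sparse. Elmod1, a GTPase-activating protein of the ARF family, had the largest ratios, at 27.7 against 0.169 CPM in wild type and 51.6 against 1.75 CPM in knockout. Its 30 and 55 gate UMIs lay in 8.82% and 17.1% of the gate cells. Kcnma1, the calcium-activated potassium channel, stood at 25.8 against 0.843 CPM and at 28.2 against 1.90 CPM. Il21, the cytokine of follicular helper cells, rested on 12 and 25 gate UMIs, at 11.1 against 1.35 CPM and at 23.5 against 2.63 CPM. Zan (zonadhesin), Kif13a (a kinesin), Ispd (an enzyme of dystroglycan glycosylation), Gucy1a3 (a subunit of soluble guanylate cyclase) and the uncharacterised 1700019D03Rik completed the set.

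**Figure D2:**
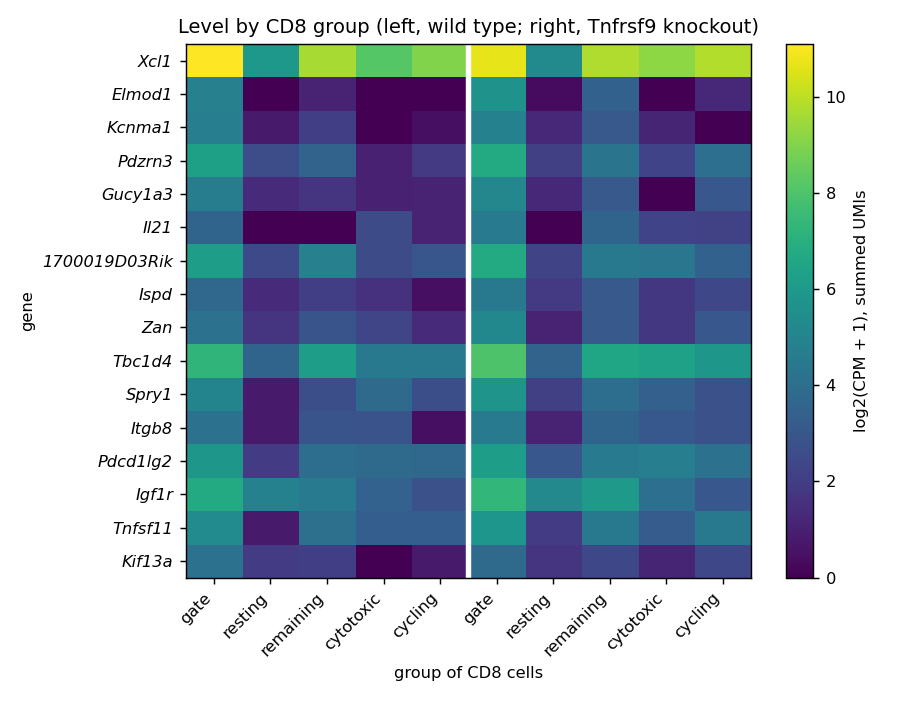
Level, on a log2 scale of CPM, of Xcl1 and the 15 genes highest in the gate (rows) in the 5 CD8 groups of each library (columns). The gate has the highest level of its library in every row, as for Xcl1 at 2198 CPM in wild type and 1640.4 CPM in knockout.

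The following gene lists are read by how many members were past the fold, beside the 1.45% and 2.05% of all genes. Of 13 TCR-induced transcription factors tested, 1 was higher, with list medians of 0.68 and 0.67 (wild type, then knockout) on the log2 scale. This was Egr2, a factor downstream of NFAT that limits T cell responses, at 45.2 against 16.9 CPM in wild type and 43.2 against 10.5 CPM in knockout. Its ratios were 1.42 (0.90 to 1.93) and 2.04 (1.47 to 2.59). Nr4a2, an orphan nuclear receptor induced by TCR signals, stood at 195 against 101 CPM and at 205 against 109 CPM. It was short of the fold in both libraries, but past it (1.13 and 1.20) without gate cells that held naive T cell genes. Such cells stayed among the other CD8 cells, so the choice in part fixes this change, and nothing is read from it. Nr4a1, of the same family, had 49.8 and 38.5 CPM in the gate and 43.4 and 68.2 CPM in cytotoxic cells. Egr3 had 0 UMIs in both gates, and a count of 0 allows up to 2.77 and 2.82 CPM.

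The label recently activated was checked with Egr2, Irf4, Nfkb1, Nfkb2 and Nr4a1, of which Egr2 alone was past the fold in both libraries. Irf4, a factor that scales with TCR signal strength, had ratios of 0.87 (0.36 to 1.35) and 0.48 (0.04 to 0.90), and cytotoxic cells held 46.5 and 67.0 CPM against 43.3 and 53.5 CPM in the gate. Nfkb1 had 0.73 (0.49 to 0.95) and 0.40 (0.18 to 0.61). Cd69, an early activation and residency marker, stood at 191 against 179 CPM in wild type and 337 against 367 CPM in knockout, and resting cells held 286 and 422 CPM. The 21 growth and biosynthesis genes and the 17 NF-kB pathway genes had 0 members past the fold, with medians of 0.03 and 0.27 and of 0.56 and 0.44. The label therefore rests on few of these genes, and the cells are called by their gate genes here.

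Costimulatory receptors and TNF family ligands had 6 of 15 members higher and 0 lower, with medians of 0.83 and 0.70. Besides Tnfrsf9 these were Tnfsf4, Tnfsf8, Tnfsf11, Tnfsf14 and Cd83. Tnfsf4, which encodes OX40L, the ligand of the gate gene Tnfrsf4, stood at 56.2 against 16.0 CPM in wild type and 70.4 against 4.09 CPM in knockout. Tnfsf8, the CD30 ligand, stood at 135 against 20.6 CPM and at 146 against 47.8 CPM. The group next to the gate for Tnfsf8 was resting cells in wild type (55.3 CPM) and remaining cells in knockout (69.6 CPM). Tnfsf11, which encodes RANKL, stood at 39.6 against 8.26 CPM and at 56.3 against 9.94 CPM. Tnfsf14, which encodes LIGHT, stood at 39.6 against 6.91 CPM and at 26.3 against 8.33 CPM. Cd83, a surface marker of activated lymphocytes and dendritic cells, stood at 34.1 against 2.36 CPM and at 33.8 against 7.01 CPM.

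Of 10 inhibitory receptors, 2 were higher. These were Cd160 (247 against 88.9 CPM in wild type and 256 against 76.6 CPM in knockout) and Btla (53.5 against 14.3 CPM in wild type and 67.6 against 25.1 CPM in knockout), both of which bind the TNF receptor HVEM. Pdcd1, which encodes PD-1, stood at 335 and 224 CPM in the gate, at 27.3 and 6.24 CPM in resting cells and at 557 and 397 CPM in cytotoxic cells. Lag3 stood at 584 and 559 CPM, at 94.3 and 27.4 CPM and at 965 and 860.3 CPM in the same groups. For these receptors the gate thus lay between resting and cytotoxic cells.

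Genes tied to anergy, follicular helper cells and progenitors also had members past the fold. Of 8 anergy genes, 3 were higher, Egr2, Izumo1r and Nt5e. Izumo1r, the folate receptor 4 of anergic and regulatory T cells, stood at 247 against 58.9 CPM in wild type and 287 against 64.4 CPM in knockout. Nt5e, which encodes the adenosine-producing enzyme CD73, stood at 87.6 against 21.9 CPM and at 105 against 29.8 CPM. Of 11 follicular helper genes, 4 were higher, Bcl6, Slamf6, Il21 and Tbc1d4, with medians of 1.21 and 1.07. Bcl6, the factor that directs that programme, stood at 63.6 against 22.8 CPM and at 66.7 against 31.0 CPM.

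Of 12 progenitor genes, 3 were higher, Slamf6, Xcl1 and Bcl6, with medians of 0.87 and 0.73. The counts of these lists are not independent of each other. Slamf6 and Bcl6 counted for both the follicular and the progenitor list, and Egr2 for both the TCR-induced and the anergy list. Xcl1 and Tbc1d4 were markers named together with the choice of cells. Tcf7, the factor of the self-renewing reservoir, stood at 184 and 187 CPM in the gate, at 181 and 188 CPM in resting cells and at 24.2 and 17.1 CPM in cytotoxic cells. Id3, which marks the same reservoir, stood at 85.7 and 89.2 CPM against 5.05 and 13.4 CPM in cytotoxic cells. Tox, a factor of chronically stimulated cells, stood at 1196 and 1083 CPM in the gate, at 383 and 279 CPM in resting cells and at 1305 and 1131 CPM in cytotoxic cells. In Tcf7 the gate was thus near resting cells, and in Tox near cytotoxic cells. Il2ra, a chain of the high-affinity interleukin-2 receptor, was the 1 of 19 cytokine receptor genes that was higher, at 29.5 against 7.76 CPM in wild type and 22.5 against 8.04 CPM in knockout. Il7r, the survival receptor of resting cells, stood at 45.2 and 73.2 CPM in the gate and 154 and 214 CPM in resting cells.

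**Figure D3:**
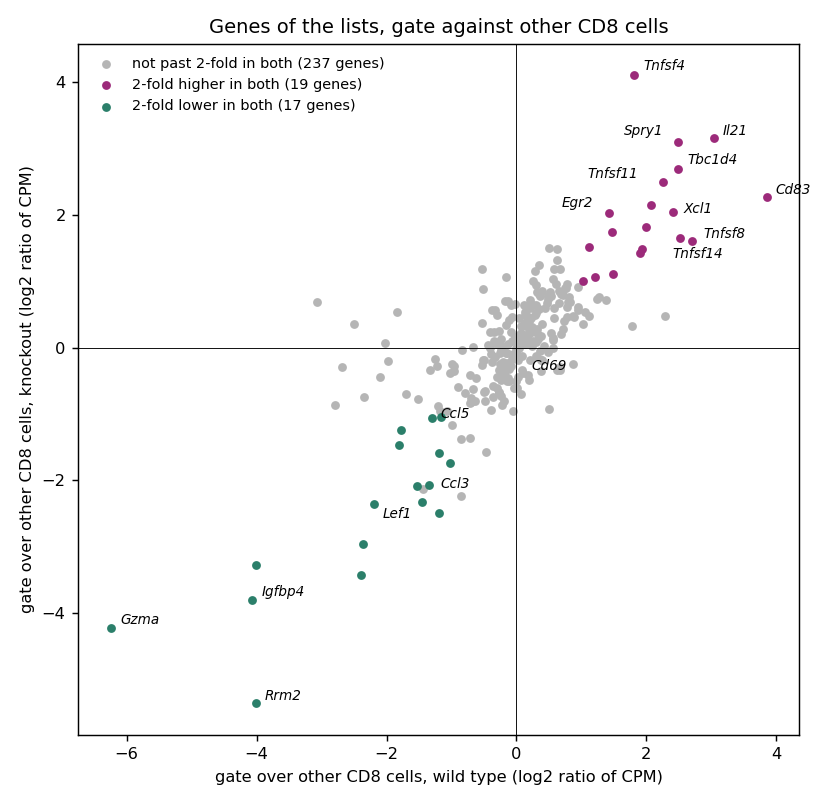
Log2 ratio of CPM, gate over other CD8 cells, in wild type (horizontal axis) and knockout (vertical axis), for the tested members of the lists. Of these genes 19 were past the fold and higher in both libraries, 17 were lower in both and 237 were neither. Tnfsf4 stands at 1.81 and 4.11, and Gzma at -6.24 and -4.22.

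Effector genes were lower or did not pass. Of 18 tested, 3 were lower, Ccl5, Gzma and Prdm1. Ccl5, a chemokine of effector and memory cells, stood at 4430.0 against 10925 CPM in wild type and 2274 against 4749 CPM in knockout. Ccl3, an inflammatory chemokine, stood at 212 against 537 CPM and at 92.0 against 384 CPM. The cytotoxic limit of the rule removed cells rich in such genes, so their direction is not independent of it. Without gate cells that held 2 or more UMIs of the naive gene set, the call of Ccl5 was lost, at -1.25 and -0.66. Such cells stayed among the other CD8 cells.

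Naive genes were lower as well. Of 10 tested, 4 were lower, among them Lef1, S1pr1 and Igfbp4. Lef1, a factor of naive T cells, stood at 53.5 and 122 CPM in the gate and 900.0 and 1091 CPM in resting cells. Ifngr1, a chain of the interferon-gamma receptor, stood at 60.8 against 139 CPM in wild type and 60.1 against 180.3 CPM in knockout, below each of the other 4 groups, which held 104 to 219 CPM. Txk, a kinase close to the TCR and the 1 of 13 such genes past the fold, stood at 80.2 against 163 CPM and at 82.6 against 275 CPM.

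The 15 lowest genes were Ccna2, Hist1h1b, Hmmr, Tpx2, Ccnb2, Mxd3, Esco2, Kif4, Sgol2a, Gzma, Nusap1, Casc5, Plk1, Kif2c and Cit. All but Gzma are genes of dividing cells, which the cycle limit kept out, and nothing is read from them. The same limit bears on the 4 of 18 G1 and S phase genes that were lower. Of 18 signal feedback genes, Spry1 and Dusp4, a MAP kinase phosphatase, were higher, and of 19 homing genes 3 were lower, S1pr1 and the integrin chain Itga1 among them. Without gate cells that held naive genes the calls of Dusp4 and Itga1 were lost. Among list members outside that gene set Tnf was then past the fold and higher, and Dapl1, Klf2, Klf3, Ccr2, Rrm1 and Mcm5 were among those lower. Cells with naive genes stayed among the other CD8 cells, so the choice in part fixes these changes. Of 11 cytokines and chemokines, Xcl1 and Il21 were higher and Ccl1, Ccl3 and Ccl5 lower. The 14 glycolysis genes, 10 survival genes, 12 interferon-stimulated genes and 10 class I presentation genes had 0 past the fold in either direction. Of 14 handling and heat shock genes, Hspa1b, a heat shock protein, was lower (7.37 against 25.8 CPM in wild type and 14.1 against 39.0 CPM in knockout).

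Levels differed with the number of gate UMIs in a cell. Among cells under the cytotoxic and cycle limits with 0, 1, 2, 3 to 4 and 5 or more gate UMIs, Xcl1 stood at 249, 714, 966, 1803 and 2772 CPM in wild type. In knockout it stood at 140.1, 504, 676, 2406 and 1966 CPM. Cells with 1 gate UMI, just outside the rule, thus held more Xcl1 than cells with none. From 0 to 5 or more gate UMIs, Tbc1d4 went from 27.4 to 183 CPM in wild type and from 15.8 to 354 CPM in knockout. Ccl5 did not fall steadily. Over the same 5 bins it stood at 7234, 9247, 8965, 7545 and 1633 CPM in wild type and at 2194, 3926, 3676, 5469.6 and 682 CPM in knockout. Tcf7 stayed between 170.2 and 188 CPM in wild type and between 174 and 235 CPM in knockout. Median depth was 5019.5 and 4993 UMIs with 0 gate UMIs and 8365 and 8689.5 with 5 or more, and its part in these differences was not tested.

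**Figure D4:**
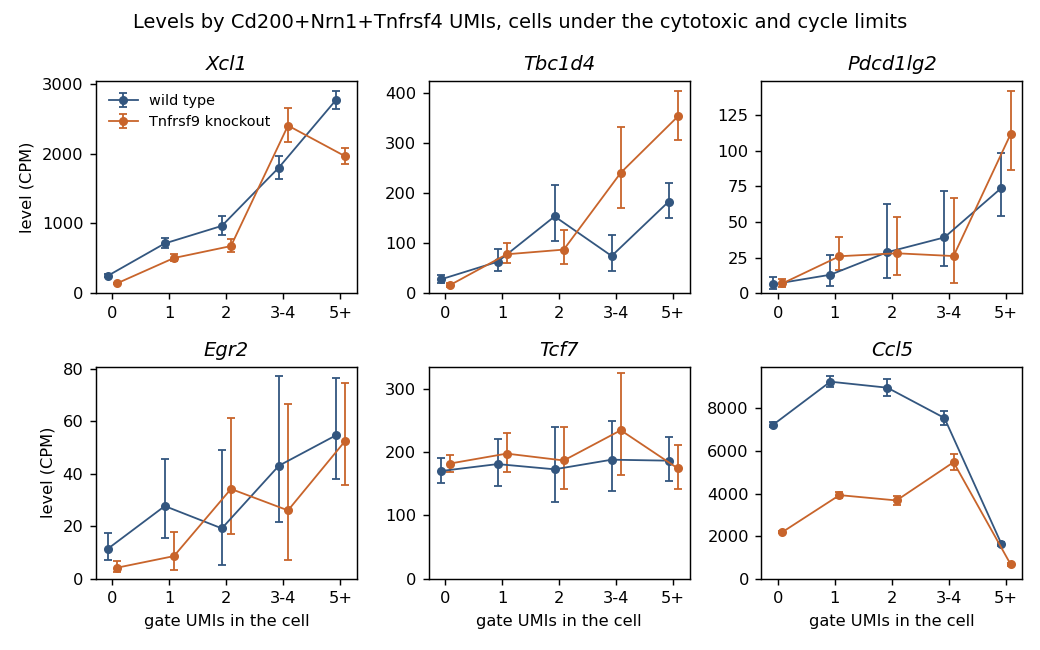
Level (CPM) of 6 genes in cells with 0, 1, 2, 3 to 4 and 5 or more gate UMIs under the cytotoxic and cycle limits, by library, with exact Poisson 95% intervals. Xcl1, Tbc1d4, Pdcd1lg2 and Egr2 stand higher at 5 or more than at 0, and Ccl5 is lowest at 5 or more, at 1633 and 682 CPM.

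The gate was not uniform. Gate cells with a Tnfrsf4 UMI held less Ccl5 than those without, with log2 ratios of -1.01 (-1.10 to -0.93) in wild type and -1.02 (-1.14 to -0.90) in knockout. They held more Cd83, with 2.39 (1.02 to 4.11) and 1.94 (0.66 to 3.50). Cells with an Nrn1 UMI held more Spry1, with 1.75 (0.68 to 2.87) and 1.18 (0.35 to 2.06). For Xcl1 the Nrn1 split went opposite ways in the libraries, with -0.35 (-0.48 to -0.22) in wild type and 0.87 (0.73 to 1.01) in knockout. Cells with a Cd200 UMI held more Xcl1, with 1.20 (0.91 to 1.51) and 2.08 (1.62 to 2.58), although the cells without Cd200 numbered 14 and 16.

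Irf8, a factor of dendritic cells that activated CD8 T cells also express, rested on the few cells with presentation genes. With all cells its ratios were 0.68 (0.34 to 1.01) and 0.81 (0.43 to 1.18), and without those cells -0.17 (-0.80 to 0.41) and 0.28 (-0.31 to 0.82). Of the list members past the fold against the other CD8 cells, only Mcm7, of the S phase genes, lost its call without them.

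Inside the gate, 7938 genes were compared between the libraries. In knockout 215 were past the fold and higher (2.71%) and 85 were lower (1.07%), and the median log2 ratio was 0.06. In the other CD8 cells 213 of the 215 had enough UMIs, and 31 were past the fold there and higher. Of the 85, 83 had enough, and 16 were past the fold there and lower. What share of all genes was past the fold between the libraries in those cells was not counted. No overlap beyond that share is read from these counts. The median ratios were 0.49 there against 1.31 in the gate, and -0.32 against -1.39. The choice of genes by their gate ratios in part fixes this gap. The 12 highest, ranked by the bound of the interval nearest 0, were Magi3, Crim1, Itpr3, Ssbp2, BC094916, Samd9l, Serpini1, Pde3b, Dhx9, Ice2, 2610044O15Rik8 and Usp6nl. Pde3b, a phosphodiesterase that breaks down cyclic AMP, stood at 57.1 CPM in wild type and 144 CPM in knockout, a ratio of 1.33 (0.90 to 1.78). Samd9l, an interferon-inducible gene, stood at 28.6 and 89.2 CPM, a ratio of 1.64 (1.04 to 2.28). Ssbp2, which encodes a single-stranded DNA binding protein, stood at 16.6 and 63.9 CPM, a ratio of 1.94 (1.18 to 2.78). In the other CD8 cells the ratios of these genes were 1.03, 1.79 and 1.78. Magi3 rested on 3 and 24 UMIs in the gate and Crim1 on 3 and 23. Itpr3, a calcium channel of the endoplasmic reticulum, rested on 3 and 23 UMIs, with 2.97 (1.24 to 5.34) in the gate and 0.77 (0.30 to 1.25) outside it. Ice2, of the little elongation complex, rested on 6 and 27 UMIs, with 2.20 (0.89 to 3.76) in the gate and 0.34 (-0.25 to 0.95) outside it.

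The 12 lowest, among them Tnfrsf9 with the values given above, were A930011G23Rik, Penk, Ctla2a, Samd3, Tnfrsf9, Klre1, Pmpca, Capn1, Ccl3, Arsb, Cmtm3 and Ephb6. Ctla2a, an inhibitor of cysteine proteases, stood at 330.0 CPM in wild type and 115 CPM in knockout, a ratio of -1.53 (-1.83 to -1.23). Penk, the enkephalin precursor, stood at 50.7 and 9.39 CPM, a ratio of -2.43 (-3.57 to -1.45). Klre1, a receptor chain of NK and cytotoxic T cells, stood at 113 and 41.3 CPM, a ratio of -1.46 (-1.99 to -0.95). In the other CD8 cells the ratios of these genes were -1.54, -2.19 and -1.75. Samd3 stood at 49.8 and 11.3 CPM in the gate, with -2.14 (-3.18 to -1.22), and had -0.08 (-0.43 to 0.28) outside it. Pmpca, a subunit of the mitochondrial processing peptidase, stood at 28.6 and 6.57 CPM, with -2.12 (-3.55 to -0.91) in the gate and -0.29 (-0.62 to 0.03) outside it. Whether the ratios inside and outside the gate differed was not tested.

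**Figure D5:**
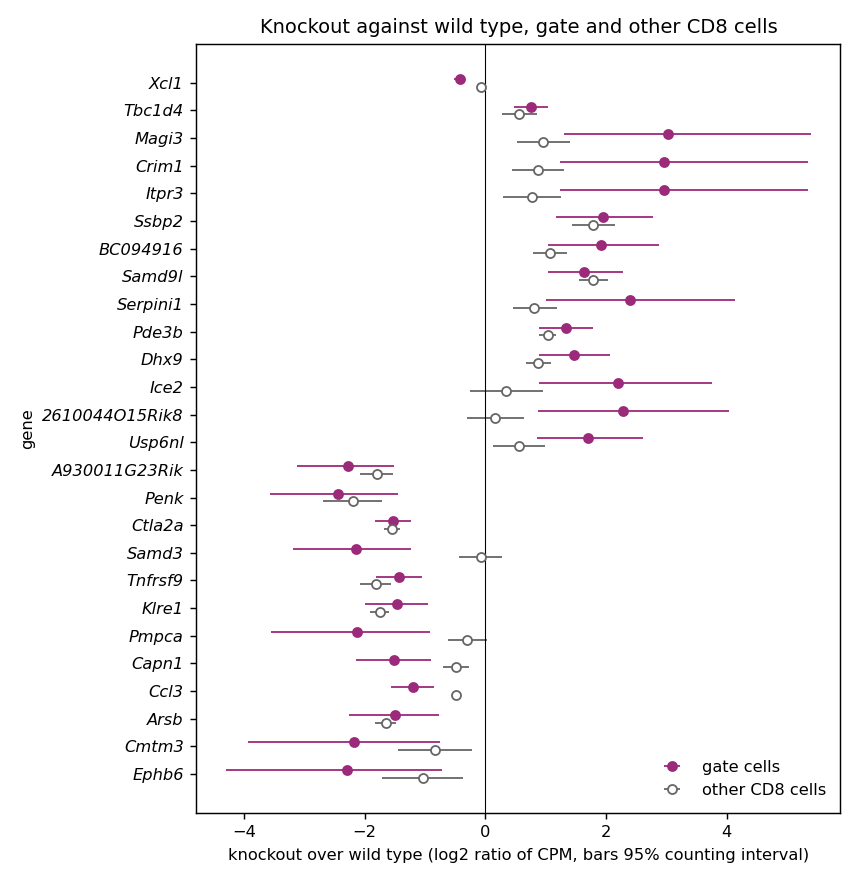
Log2 ratio of CPM, knockout over wild type, in gate cells and in the other CD8 cells, for Xcl1, Tbc1d4 and the 12 highest and 12 lowest genes inside the gate, with 95% counting intervals. Ctla2a stands at -1.53 in the gate and -1.54 outside it, and Samd3 at -2.14 and -0.08.

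The markers and most lists had few members past the fold between the libraries. Xcl1 had a ratio of -0.42 (-0.51 to -0.33) and Tbc1d4 of 0.76 (0.47 to 1.05), both short of the fold. The 13 TCR-induced factors, 9 inhibitory receptors, 12 progenitor genes and 8 anergy genes had 0 past it in either direction. Of 17 NF-kB pathway genes, Rel, which encodes c-Rel, was higher in knockout (92.2 and 204 CPM, 1.14 (0.80 to 1.50)), and Nfkbib, an inhibitor of the pathway, was lower (77.4 and 33.8 CPM). In the other CD8 cells the ratio of Rel was 1.56. Lta, which encodes lymphotoxin alpha, was lower (44.2 and 16.9 CPM, -1.39 (-2.26 to -0.58)), and the other CD8 cells gave 0.41 (-0.10 to 0.94). Il21 was higher on 12 and 25 UMIs (1.09 (0.04 to 2.21)). Of 15 effector genes, Gzmk, a granzyme (78.4 and 38.5 CPM), and Klre1 were lower. Of 11 interferon-stimulated genes, Isg15 (52.5 and 109.9 CPM) and Ifit3 (6.45 and 16.9 CPM) were higher and Isg20 (47.0 and 21.6 CPM) was lower. Cxcr4, a homing receptor, was lower (21.2 and 7.51 CPM), and Dusp5, an ERK phosphatase, was higher (4.61 and 15.02 CPM). The 21 growth genes, 12 glycolysis genes, 9 survival genes, 10 class I genes and 14 handling genes had 0 past the fold.

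Cells with naive genes made up more of the knockout library, inside the gate and outside it. At least 2 UMIs of the naive gene set were found in 22 wild type gate cells (16.2%) and 38 knockout gate cells (29.5%), a difference of 13.3 percentage points (3.18 to 23.2). Outside the gate the difference was larger, with 38.4% and 67.2% of the other CD8 cells, or 28.8 percentage points (24.3 to 33.2). Lef1 (53.5 and 122 CPM) and Ccr7 (24.9 and 55.4 CPM) were higher in knockout gate cells, by 1.19 and 1.15. Both helped to choose those cells, so their ratios without them are not read. With those cells left out, Xcl1 stood at 2331 and 2139.8 CPM, a ratio of -0.12 (-0.22 to -0.03). The calls of Ccl3, Isg15 and Dusp5 were lost as well, and Nr4a3, a TCR-induced factor, was then lower in knockout (-1.06), as were Mcm5 (-1.88), Sh2d1a (-1.02) and Il10ra (-1.01). The 12 highest genes then had ratios from 1.60 to 2.81 and the 12 lowest from -3.19 to -0.93.

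H2-Aa, a class II chain, stood at 27.7 and 237 CPM in the gate, and 198 of its UMIs in the knockout gate lay in 1 cell. Cells with presentation genes were chosen in part by this gene, so its level without them is not compared. Without those cells the knockout calls of Isg15 (1.06 to 0.68), Ifit3 (1.39 to 1.33) and Dusp5 (1.70 to 1.53) were lost. Among list members, Ccr2 and Cd226 were then past the fold and higher in knockout, at 1.44 and 1.01, and Klrk1 lower, at -1.01. Genes near the deleted locus were also counted. Tnfrsf9 lies at chr4:150914562-150946102 (mm10, GENCODE vM21), and of 87 other genes tested within 10 Mb of it, 2 were higher and 2 lower in knockout gate cells, against 2.71% and 1.07% of all genes. Isg15 is 1 of the 2 that were higher. Tnfrsf4 itself lies at chr4:156013843-156016612, inside that span. With a gate without Tnfrsf4, knockout minus wild type share was -4.44 percentage points.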

How the data were processed

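Islet CD8 T cells and GFP+ regulatory T cells of each genotype were sequenced in 1 droplet library. The deposited files hold UMI counts per gene and cell, which the authors made with Cell Ranger 7.0.0 against mm10. Whether intronic reads were counted is not given in the sources used here. The cells were regrouped with the rules stated in the results, and counts were summed per library and group. Ratios of summed counts were given exact 95% intervals conditional on the total, with 0.5 in place of a count of 0, and shares exact binomial intervals (Python 3.11.15, scipy 1.17.1). A count of 0 was read as allowing up to 3 counts. The script for the ratios was tested on simulated data.

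The genes, lists and members were chosen with earlier results of these data known. Genes were named as Tnfrsf9 and the markers, the 15 highest and 15 lowest in the gate by the smaller absolute log2 ratio of both libraries, the 12 highest and 12 lowest in knockout by the bound nearest 0, and members of the lists. Genes of which 1 cell held over 25% of the UMIs of the higher group, mitochondrial genes and variable receptor genes were left out. Alternatives were other gates, limits on cells, CD8 rules, comparison cells, minimum UMIs, cell weights and scalings (edgeR 4.0.16 in R 4.3.3 for TMM). Leaving out resting cells from the denominator, gate cells with naive genes, and cells with at least 10 UMIs of presentation genes were chosen after seeing the data. Some listed genes are not reported here.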

Additional observations from a re-analysis of the deposited data

Results flagged for a closer look

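Of 9738 genes, 6 were past the fold in opposite directions in the 2 libraries when the gate was set against the other CD8 cells. The log2 ratios of gate over other CD8 cells, wild type then knockout, were 1.24 and -1.09 for Gm11084, -1.72 and 1.18 for Gas2, -2.70 and 1.16 for Arid3a, and 1.04 and -1.12 for Insr, the insulin receptor. They were -1.17 and 1.42 for Ctsl, a lysosomal protease, where 1 cell held 31.8% of the knockout gate UMIs, and -2.01 and 3.17 for Ly6d, where 1 cell held 71.4%. Each rested on 2 to 28 UMIs per gate, and the difference between the libraries was not tested.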

How the results depend on the processing

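Knockout minus wild type share was -1.21 percentage points with a gate without Cd200 and 3.79 outside the resting group, where its sign turned, as it did outside the resting and cycling groups (1.34). Genes higher in the gate went from 141 to 90 with at least 50 UMIs, and genes lower from 200 to 95 with thinned cells and 128 with comparison cells under the same limits. Genes higher in knockout went from 215 to 92 with at least 50 UMIs, and genes lower from 85 to 33 with at least 50 UMIs, 130 with no minimum and 137 with each cell counting the same. List members higher in the gate went from 19 to 31 with comparison cells under the same limits, and members lower from 17 to 11 with thinned cells. List members higher in knockout went from 7 to 11 without Cd200, to 4 with TMM factors, to 4 with at least 50 UMIs and to 3 without gate cells with naive genes, and members lower from 8 to 14 with a gate of 3 UMIs. The cause was not tested. The knockout ratio of Ccl3 turned to 0.20 without Cd200 and that of Arsb to 0.24 with thinned cells. Of 1272 other values of the named genes' ratios, 91 moved by more than their counting interval and 2 turned sign. No paired analysis was possible because each genotype had 1 library. Depth limits genes of few UMIs, and intervals do not cover mice.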
